A study of Homo sapiens with 6 samples.

Results

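The miR-224/miR-452 cluster consists of a pair of microRNA hairpins, MIR224 and MIR452, that lie within the GABRE gene on the X chromosome and give 4 mature miRNAs: hsa-miR-224-5p, hsa-miR-224-3p, hsa-miR-452-5p and hsa-miR-452-3p (hsa, human, is left out below). The members were taken by their exact names from the deposited table, in which each had 1 row, and they are 4 of its 2588 miRNAs. Small RNA-seq was performed on A549 cells, a human lung adenocarcinoma cell line, with 3 libraries of parental cells (Ctrl) and 3 of cells in which the MIR21 locus had been deleted by CRISPR/Cas9 with 2 sgRNAs (MIR21-KO). Both groups were grown without further treatment and harvested 48 h after seeding. Knockout cells were derived from single-cell clones, and the sources used here do not say whether the 3 MIR21-KO libraries come from 1 clone or from separate cultures, so p-values measure the spread between these libraries, which may be technical. The comparison of MIR21-deleted with parental cells is described here for the GABRE cluster.

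A miRNA hairpin is cut by Dicer into a duplex, one strand of which, the guide, is retained in an Argonaute protein, while the other, the passenger strand, is mostly degraded. The guide finds its target mRNAs mainly through the seed, bases 2 to 8 from its 5′ end. GABRE encodes the epsilon subunit of the GABA-A receptor, and miR-224 is known from liver and other cancers, where raised levels have been described.

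The mature sequences are shown because the seeds set apart the 4 members: no pair of them shared a seed. They are RefSeq sequences (GRCh38.p14), written 5′ to 3′ with the seed in capitals.
miR-224-5p: uCAAGUCAcuagugguuccguuuag
miR-224-3p: aAAAUGGUgcccuagugacuaca
miR-452-5p: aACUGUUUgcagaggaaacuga
miR-452-3p: cUCAUCUGcaaagaaguaagug
The hairpins follow, with both mature arms in capitals, to show how the 5p and 3p arms face each other across the loop.
MIR224: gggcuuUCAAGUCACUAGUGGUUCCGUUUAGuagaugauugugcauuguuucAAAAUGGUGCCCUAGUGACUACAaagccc
MIR452: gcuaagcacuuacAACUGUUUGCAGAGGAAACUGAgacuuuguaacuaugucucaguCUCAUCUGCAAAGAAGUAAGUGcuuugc

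MIR224 spans 81 bases at chrX:151958578-151958658 and MIR452 85 bases at chrX:151959628-151959712, both on the minus strand of GRCh38, with 969 bases between them. GABRE itself runs from 151953124 to 151974680 on the same strand. Both hairpins lie in intron 6 of GABRE-201, a transcript of 9 exons, and MIR452 is the nearer to the transcript's start. In GENCODE 29 both also overlap exon 1 of the retained-intron transcript GABRE-209, and MIR224 overlaps exon 3 of the retained-intron transcript GABRE-207. GABRE mRNA was not measured in these libraries.

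The libraries held 5577287 to 9768152 miRNA reads. The deleted miRNA was checked first. miR-21-5p, an abundant miRNA of cancer cells, made up 65.5%, 68.5% and 69.4% of all miRNA reads in Ctrl, and its log2 fold change in MIR21-KO was -13.02 (SE 0.39, limma adjusted p = 1.05e-06), while that of miR-21-3p was -9.64 (SE 0.68, adjusted p = 3.05e-04). In the other miRNAs, the main split of the libraries was not by genotype. The first principal component, computed over 601 miRNAs without miR-21 and without the cluster, held 72% of the variance and set Ctrl replicates 1 and 2 with MIR21-KO replicate 3 (set A) apart from Ctrl replicate 3 with MIR21-KO replicates 1 and 2 (set B). These sets were read from the data and are not groups of the study, and their origin is not given in the labels. The paper states that its small RNA libraries were made with a NEXTflex kit or by Novogene, and sequenced in Dresden or by Novogene. It does not say which library took which route, and a link to the sets was not tested. Because of the split, values are also given within each set.

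All levels below are the deposited values, TMM-scaled CPM. TMM is a normalization that rescales the total of each library so that most miRNAs come to a common level. A read covers a whole mature miRNA, so these levels were not divided by length.

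miR-224-5p was the most abundant member by its mean over the 6 libraries and ranked 34 of 2588 miRNAs. Its level was 5029.7, 1612 and 1782 in Ctrl replicates 1 to 3, from 18833, 5962 and 12629 reads. In MIR21-KO replicates 1 to 3 it was 2053, 1871 and 4466, from 28500, 25941 and 34351 reads. One library of each group, Ctrl replicate 1 and MIR21-KO replicate 3, stood more than 2-fold above the others, and the groups overlapped. The means were 2808 ± 1926 in Ctrl and 2797 ± 1449 in MIR21-KO (SD, n = 3 each), and the log2 fold change was 0.08 (SE 0.58, 95% interval -1.28 to 1.44, limma adjusted p = 0.953). The interval includes changes of more than 2-fold in either direction, and the sign turned when single libraries were left out, namely Ctrl replicate 2 (-0.22), Ctrl replicate 3 (-0.14) or MIR21-KO replicate 3 (-0.31).

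miR-452-5p was the second most abundant member and ranked 48. Its level was 655, 1068 and 1393 in Ctrl, from 2453, 3950 and 9872 reads. In MIR21-KO it was 2682, 2834 and 1221, from 37238, 39297 and 9389 reads. The 2 highest values belonged to MIR21-KO libraries, but MIR21-KO replicate 3 lay below Ctrl replicate 3, so the groups overlapped. The means were 1039 ± 370 and 2246 ± 891 (SD, n = 3 each). The log2 fold change was 1.08 (SE 0.51, 95% interval -0.10 to 2.27), the largest of the members and number 57 in order of log2 fold change among 607 miRNAs tested. It did not pass the test (limma adjusted p = 0.481, unadjusted p = 0.0677).

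The 3p strands were far less abundant. miR-224-3p, the partner strand of miR-224-5p, ranked 234 and had levels of 9.88, 15.4 and 40.9 in Ctrl, against 57.8, 50.0 and 16.6 in MIR21-KO. It rested on as few as 37 reads in Ctrl replicate 1 and on as many as 803 in MIR21-KO replicate 1. The groups overlapped, with means of 22.1 ± 16.6 and 41.5 ± 21.9 (SD, n = 3 each), and the log2 fold change of 0.94 (SE 0.70, 95% interval -0.68 to 2.56) did not pass the test (limma adjusted p = 0.671).

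miR-452-3p, the partner strand of miR-452-5p, ranked 195 and had levels of 38.5, 34.1 and 125 in Ctrl, against 69.1, 60.4 and 38.2 in MIR21-KO. Ctrl replicate 3 held the highest value, with 889 reads, and Ctrl replicate 2 the lowest, with 126. The groups overlapped again, with means of 66.0 ± 51.5 and 55.9 ± 15.9 (SD, n = 3 each) and a log2 fold change of -0.02 (SE 0.61, 95% interval -1.44 to 1.41, limma adjusted p = 0.981). Leaving out Ctrl replicate 3 made it 0.57, and leaving out MIR21-KO replicate 3 made it 0.23.

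Of the 4 members, 0 passed the test in either direction, also at an unadjusted p under 0.05, and 0 had groups that did not overlap. Over all 607 miRNAs tested with limma, 0% were called higher in MIR21-KO and 0.824% lower, and at an unadjusted p under 0.05 the shares were 6.75% and 4.45%. Groups that did not overlap were found for 9.56% of miRNAs with higher and 6.59% with lower values in MIR21-KO. edgeR's quasi-likelihood test and DESeq2 on the recovered reads likewise called 0 of the 4, in fits that called 0% and 0.667% of miRNAs higher and 1.15% and 3.17% lower.

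**Figure D1:**
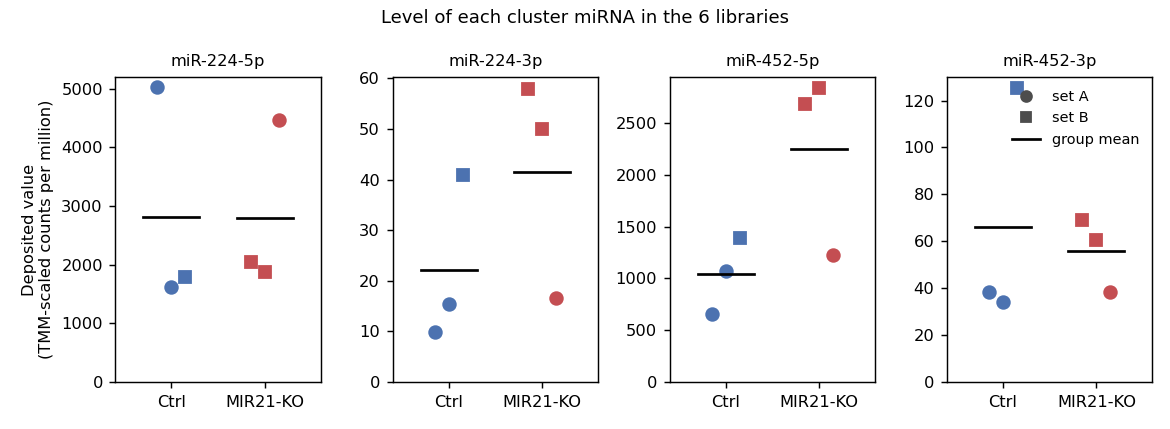
Deposited values (TMM-scaled CPM, linear axis from 0) of the 4 cluster miRNAs in 3 Ctrl and 3 MIR21-KO libraries, placed left to right as replicates 1 to 3. Circles are libraries of set A, squares those of set B, and lines are group means. For miR-224-3p, miR-452-5p and miR-452-3p every square lies above every circle, while for miR-224-5p the highest points are a circle in each group.

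Between the library sets, 3 of the 4 members did not overlap, all with lower values in set A. miR-452-5p ranged from 655 to 1221 in set A and from 1393 to 2834 in set B. miR-224-3p ranged from 9.88 to 16.6 and from 40.9 to 57.8, and miR-452-3p from 34.1 to 38.5 and from 60.4 to 125. miR-224-5p overlapped, at 1612 to 5029.7 in set A and 1782 to 2053 in set B. Among all miRNAs tested, 35.1% were lower in set A without overlap and 22.1% were higher, so such a split was common.

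Within the sets, the deposited values of miR-452-5p were higher in the MIR21-KO libraries each time. In set A the 1 MIR21-KO library had 1221 against 655 and 1068, a log2 difference of 0.54. In set B the 2 MIR21-KO libraries had 2682 and 2834 against 1393 in the 1 Ctrl library, a log2 difference of 0.98. As a share of reads without miR-21, MIR21-KO replicate 3 (0.168%) lay between the Ctrl libraries of set A (0.104% and 0.203%). In set B the MIR21-KO shares (0.430% and 0.543%) stayed above the Ctrl share (0.333%). A limma fit with a term for the sets gave miR-452-5p a log2 fold change of 0.76 (SE 0.25, 95% interval 0.23 to 1.30, adjusted p = 0.0466). This passed the threshold of 0.05, in a fit that called 11.7% of all miRNAs higher and 6.43% lower. edgeR's quasi-likelihood test with the same term gave 0.70 and did not (adjusted p = 0.0748), in a fit that called 8.9% higher and 6.26% lower. The sets were read from these same libraries, so the SEs, intervals and p-values of fits with the set term may be too small. Scaling each library to its total of all miRNAs, miR-21 included, gave miR-452-5p a log2 fold change of 2.47 (limma adjusted p = 0.0290), and 32.3% of all miRNAs were then called higher. Over the reported fit and its 20 alternatives, the adjusted p of miR-452-5p ran from 0.0290 to 0.983.

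In deposited values miR-224-3p was also higher in the MIR21-KO libraries, by 0.40 in set A and 0.39 in set B on the log2 scale. It did not pass the test in the fit with the set term (0.39, SE 0.29, limma adjusted p = 0.402). Its shares of reads without miR-21 did not keep this order. In set A, MIR21-KO replicate 3 (0.00230%) lay between Ctrl replicates 1 and 2 (0.00156% and 0.00293%). In set B, MIR21-KO replicates 1 and 2 (0.00926% and 0.00957%) lay below Ctrl replicate 3 (0.00978%). For miR-224-5p the within-set log2 differences of the deposited values were 0.65 and 0.14 (with the set term 0.39, SE 0.34, limma adjusted p = 0.476). As shares of reads without miR-21, MIR21-KO replicate 3 (0.616%) lay between Ctrl replicates 1 and 2 (0.795% and 0.307%). MIR21-KO replicates 1 and 2 (0.329% and 0.358%) lay below Ctrl replicate 3 (0.426%). For miR-452-3p the within-set log2 differences were 0.08 and -0.95 (with the set term -0.43, SE 0.30, limma adjusted p = 0.357). Its share in MIR21-KO replicate 3 (0.00527%) lay below those of Ctrl replicates 1 and 2 (0.00608% and 0.00648%). In set B, too, the MIR21-KO shares (0.0111% and 0.0116%) lay below the Ctrl share (0.0300%). A set holds 1 library of one group, so no set can be tested alone.

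**Figure D2:**
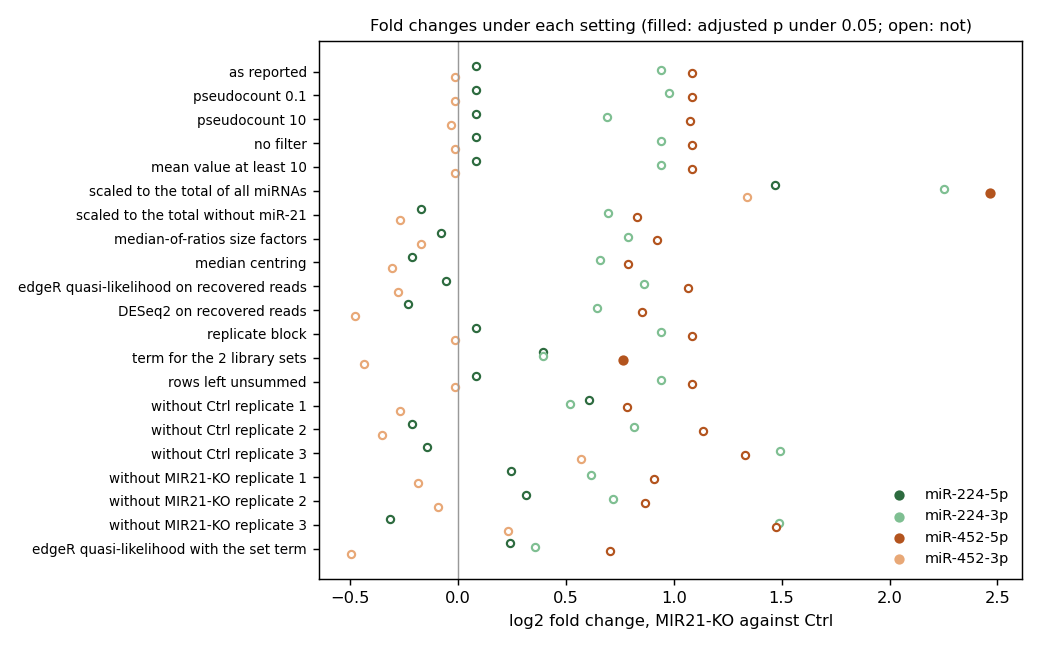
Log2 fold changes of the 4 cluster miRNAs, MIR21-KO against Ctrl, on the x axis, with each way of processing or testing the values on the y axis. Filled points have an adjusted p under 0.05. miR-452-5p is filled in 2 settings, scaling to the total of all miRNAs (2.47) and the limma fit with a term for the library sets (0.76), and lies above 0 in all of them, while miR-224-5p and miR-452-3p fall on both sides of 0.

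The balance of the hairpins varied more than their sum. The ratio of miR-224-5p to miR-452-5p, which does not depend on how a library is scaled, was 7.68, 1.51 and 1.28 in Ctrl, against 0.765, 0.660 and 3.66 in MIR21-KO. miR-224-5p was thus the higher of the pair in all Ctrl libraries and in MIR21-KO replicate 3, and miR-452-5p in the other MIR21-KO libraries. The mean log2 ratio was 1.30 ± 1.43 in Ctrl and 0.30 ± 1.37 in MIR21-KO (SD, n = 3 each), a difference of -1.0 that was within the spread (two-sided exact permutation p = 0.5) and was -0.18 when Ctrl replicate 1 was left out. With 3 libraries against 3 this test cannot go below 0.1. Among the 3p strands, miR-452-3p exceeded miR-224-3p in all 6 libraries. The ratio of miR-224-3p to miR-452-3p was 0.257, 0.452 and 0.326 in Ctrl, against 0.836, 0.827 and 0.435 in MIR21-KO, where replicate 3 fell within the Ctrl range (exact permutation p = 0.2).

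The 4 members together summed to 5733, 2729 and 3342 in Ctrl, against 4862, 4815 and 5742 in MIR21-KO. Ctrl replicate 1 lay among the MIR21-KO values, so the groups overlapped, and the means were 3934 ± 1588 and 5139.8 ± 522 (SD, n = 3 each). miR-224-5p made up 87.7%, 59.1% and 53.3% of the sum in Ctrl and 42.2%, 38.9% and 77.8% in MIR21-KO.

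As a share of all miRNA reads the cluster took 0.312%, 0.163% and 0.242% in Ctrl, against 0.778%, 0.922% and 0.792% in MIR21-KO, without overlap. Most reads in Ctrl were miR-21-5p, which was removed in MIR21-KO, so shares of the total are larger for other miRNAs by construction. With miR-21 left out of the total, the shares were 0.907%, 0.519% and 0.798% in Ctrl, against 0.779%, 0.922% and 0.792% in MIR21-KO, and they overlapped (0.741% ± 0.200 against 0.831% ± 0.0791, SD, n = 3 each).

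**Figure D3:**
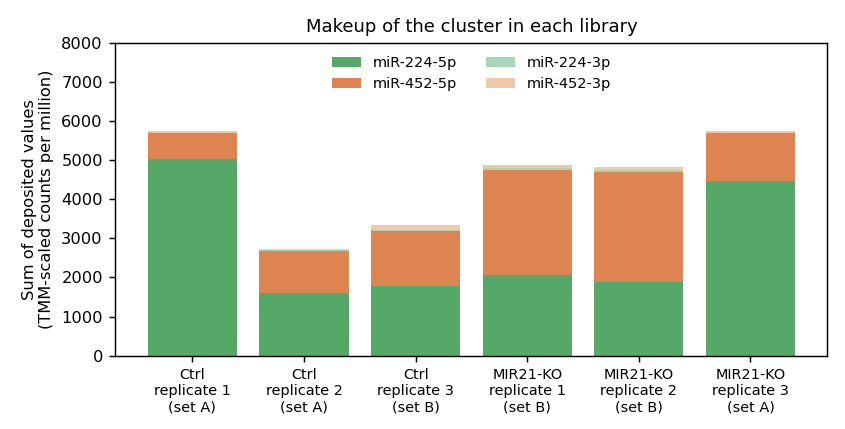
Sum of the deposited values of the 4 cluster miRNAs in each library (y axis, TMM-scaled CPM, from 0), stacked by miRNA. miR-224-5p makes up the larger part in Ctrl replicates 1 (87.7%), 2 (59.1%) and 3 (53.3%) and in MIR21-KO replicate 3 (77.8%). miR-452-5p does so in MIR21-KO replicates 1 (55.2%) and 2 (58.9%).

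Both hairpins gave mainly 5p reads. For MIR224 the 3p strand took 0.196%, 0.947% and 2.24% of the reads of both arms in Ctrl and 2.74%, 2.60% and 0.371% in MIR21-KO. These shares overlapped between the groups and not between the library sets, with set A below 1% and set B above 2%. Among 90 hairpins with at least 10 reads of each arm in every library, 28.9% had a lower 3p share in set A without overlap and 41.1% a higher one. The 5p share of MIR224 was 98.9% ± 1.04 in Ctrl and 98.1% ± 1.33 in MIR21-KO (SD, n = 3 each, exact permutation p = 0.5).

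For MIR452 the 3p share was 5.54%, 3.09% and 8.26% in Ctrl, against 2.51%, 2.09% and 3.04% in MIR21-KO. The groups did not overlap, MIR21-KO being the lower, though Ctrl replicate 2 (95% Wilson interval 2.60% to 3.67%) and MIR21-KO replicate 3 (2.71% to 3.40%) were within counting error of each other. The mean 5p share was 94.4% ± 2.59 in Ctrl and 97.5% ± 0.475 in MIR21-KO (SD, n = 3 each), a difference of 3.09 percentage points that was 1.77 when Ctrl replicate 3 was left out. The exact permutation p was 0.1, the smallest this design allows, so the difference did not reach 0.05. A 3p share lower in MIR21-KO without overlap was found for 3.33% of the 90 hairpins. In a limma fit of the log2 ratio of 5p to 3p reads over those hairpins, chosen after seeing the data, MIR452 had a difference of 1.10 (SE 0.51, unadjusted p = 0.0764, adjusted p = 0.881) and MIR224 one of -0.90 (SE 1.21, adjusted p = 0.894). By the unadjusted p, 0% of the hairpins had a higher and 1.11% a lower ratio in MIR21-KO. Leaving out Ctrl replicate 1 made the MIR224 difference 0.07. With the set term they became 1.2 (adjusted p = 0.260) and -0.02.

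**Figure D4:**
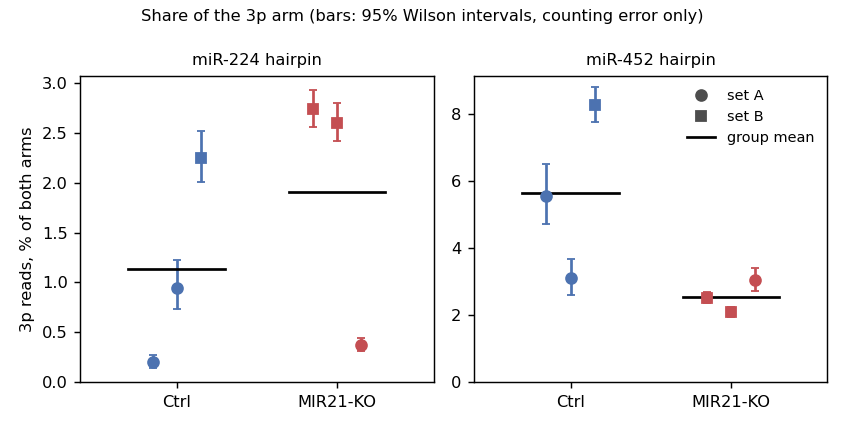
Reads of the 3p arm as a percentage of the reads of both arms (y axis, from 0) for the MIR224 and MIR452 hairpins in 3 Ctrl and 3 MIR21-KO libraries. Bars are 95% Wilson intervals for counting error only, lines are group means, circles are set A and squares set B. The MIR224 shares part by library set, and the MIR452 shares part by group, with 3.09% and 3.04% as the nearest libraries.

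The profiles of the members were compared as a description over the 6 libraries, which share the set split. Pearson's r of log2(value + 1) was -0.65 between miR-224-5p and miR-224-3p and 0.47 between miR-452-5p and miR-452-3p. Across hairpins it was 0.93 between miR-224-3p and miR-452-5p and -0.58 between the 5p strands. Among 330 miRNAs of other hairpins whose mean reached 10, the profiles most like miR-224-5p were those of miR-450b-5p (r = 0.90), miR-543 (0.89), miR-27a-3p (0.88), let-7a-3p (0.88) and miR-654-3p (0.85), all highest in Ctrl replicate 1 or MIR21-KO replicate 3. Those most like miR-452-5p were miR-574-3p (0.99), miR-130b-3p (0.99), miR-320b (0.99), miR-320c (0.99) and let-7d-5p (0.98), all highest in MIR21-KO replicates 1 and 2.

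Other miRNAs of the table were searched for the seeds of the cluster where their names matched a RefSeq mature sequence (2281 of 2588). Among these, only the seed of miR-452-5p was found again, and the remaining names were not checked. The miRNAs that share this seed are shown for comparison with miR-452-5p above.
miR-4676-3p: cACUGUUUcaccacuggcucuu
miR-892c-3p: cACUGUUUccuuucugagugga
miR-4676-3p had 34 reads over all 6 libraries and miR-892c-3p had 0. Among the names searched, nearly all reads with this seed were thus those of miR-452-5p.

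Other miRNAs of the X chromosome were described from a list of 81 names, 42 of which could be tested. Of these, 0 were called in either direction by limma, while 2 were above and 0 below by the unadjusted p (under 0.05), and 4 were higher and 2 lower in MIR21-KO without overlap of the groups. Over all 607 miRNAs the shares were 6.75% and 4.45% by the unadjusted p and 9.56% and 6.59% without overlap, so these counts were near the background. Their median log2 fold change was 0.28, against 0.24 over all miRNAs tested. The most abundant was miR-221-3p, with a log2 fold change of 0.28 (SE 0.38), followed by miR-222-3p at -0.43 (SE 0.43), both from one hairpin cluster, then miR-361-3p at 0.28 (SE 0.56), miR-532-5p at -0.82 (SE 0.58), miR-221-5p at -0.27 (SE 0.39) and miR-542-3p at 1.15 (SE 0.40, adjusted p = 0.371). miR-542-3p had values of 351, 393 and 429.96 in Ctrl, against 829, 1108.5 and 712 in MIR21-KO, which did not overlap, and it passed the test in the fit with the set term (1.05, limma adjusted p = 0.00912). That fit called 3 of the 42 higher and 1 lower, beside 11.7% and 6.43% of all miRNAs. The hairpins in an intron of GABRA3, another GABA-A receptor subunit gene on the X chromosome, were nearly silent: miR-767-5p, miR-767-3p and miR-105-3p had 0 reads in all libraries and miR-105-5p had 1.

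Of 30 miRNAs often described as raised in lung cancer, 28 could be tested and 0 were called by limma, with 1 above and 2 below by the unadjusted p, 3 higher and 2 lower without overlap of the groups, and a median log2 fold change of 0.26. These counts, too, were near the shares of all miRNAs given for the X chromosome list. The fit with the set term called 3 of the 28 higher and 3 lower, beside 11.7% and 6.43% of all miRNAs. The most abundant were miR-182-5p (log2 fold change 0.51, SE 0.35, and with the set term 0.66, limma adjusted p = 0.0362), miR-221-3p and miR-222-3p as given above, miR-25-3p (-0.09, SE 0.41), miR-92a-3p (-0.64, SE 0.38) and miR-183-5p (0.14, SE 0.54).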

How the data were processed

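Small RNA-seq libraries of A549 cells (3 Ctrl, 3 MIR21-KO; 1 table, grouped by sample title) were analysed. The submitters' processing notes name cutadapt 1.14, Bowtie2 2.3.2, SAMtools 1.5, featureCounts 1.5.3, edgeR 3.18.1 and the build hg38. The treatment of reads that fit several loci is not given in the sources used here. The authors deposited a signal per miRNA, TMM-scaled CPM, beside their own log2 fold changes and p-values, which were not used. All values above 0 (100%) were whole multiples of 1 read to within 0.001, so reads were recovered. The authors' TMM scaling sets most miRNAs to a common level, and a change shared by most would be removed.

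The 2813 rows were summed by name (Python 3.11.15, pandas 2.3.3), which left 2588 miRNAs. limma 3.58.1 (R 4.3.3, lmFit and eBayes with trend) was run on log2(value + 1) of the 607 miRNAs that reached 1 in 3 or more libraries, with condition as the only term, and two-sided p-values were adjusted by Benjamini-Hochberg. Fold changes on this scale understate those of low miRNAs. For shares and ratios the exact permutation test (two-sided) was used. edgeR 4.0.16 and DESeq2 1.42.0 (7 adjusted p not given) on recovered reads, other scalings, pseudocounts and filters, unsummed rows, a replicate block, a term for the library sets and leaving out each library were alternatives. edgeR with the set term and the limma fit of strand ratios were added after seeing the data. The limma procedure was tested on simulated counts that held no library sets, so that test does not show how it behaves under the set split.

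Depth was 6180032 to 9768152 reads in Ctrl and 5577287 to 8671618 in MIR21-KO. Whether reads carried molecular identifiers is not given in the sources used here, and the Wilson intervals cover counting error only. Replicates differed beyond sampling noise (chi-square per degree of freedom 130 to 2560). Named miRNAs were the members, miR-21, seed sharers with a read, the 5 most correlated miRNAs for each 5p member and the 6 most abundant of each list. miR-892c-3p and the GABRA3 miRNAs were added after their values were seen. The members and lists were chosen with earlier results of these data known.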

Additional observations from a re-analysis of the deposited data

How the results depend on the processing

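The log2 fold change of miR-224-5p was below 0 after scaling to the total without miR-21 (-0.17), with median-of-ratios size factors (-0.077), after median centring (-0.21), with edgeR's quasi-likelihood test (-0.057) and with DESeq2 (-0.23), and ran from -0.31 to 0.61 when a library was left out. It was 1.47 (adjusted p = 0.0569) after scaling to the total of all miRNAs, where miR-224-3p was at 2.25 (adjusted p = 0.0635). That of miR-452-3p was 1.34 after scaling to the total of all miRNAs and ran from -0.35 to 0.57 when a library was left out. miR-452-5p, at 0.78 to 1.47 when a library was left out, passed the threshold with 2.47 after scaling to the total of all miRNAs and with 0.76 under the set term, so that 1 member was called in each. miR-224-3p ran from 0.52 to 1.49 when a library was left out. The median over all miRNAs tested was 0.24 on the log2 scale and moved to 1.34 (total of all miRNAs), 0.02 (total without miR-21), 0.10 (median of ratios) and -0.02 (median centring), and the total includes miR-21 by construction.

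Over all miRNAs, the number called higher was 196 after scaling to the total, 4 with DESeq2, 71 under limma's set term and 54 under edgeR's, against 0. The number called lower was 3 at a pseudocount of 10, 19 in DESeq2, 2 under the replicate block, 39 under limma's set term and 38 under edgeR's, against 5, and leaving out a library gave 2 (Ctrl 1, MIR21-KO 1 or 2), 3 (Ctrl 2 or MIR21-KO 3) or 5 (Ctrl 3). On the X chromosome list the higher calls were 14 after scaling to the total, 3 under limma's set term and 3 under edgeR's, and the lower calls 1 under limma's. On the lung cancer list the higher calls were 9, 1, 3 and 2 (total, DESeq2, set term, edgeR with the set term) and the lower calls 1, 3 and 3 (DESeq2, set term, edgeR with the set term). The sum of the members in MIR21-KO was 131% of Ctrl, and 347%, 112%, 117% and 104% under the 4 scalings in the order above, with 113% to 169% when a library was left out. The 5p share difference ran from -1.54 to -0.31 percentage points for MIR224 and from 1.77 to 4.36 for MIR452 when a library was left out, and the log2 ratio difference of the 5p strands from -1.79 to -0.18. The cause of these differences was not tested.

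Deviations of same-numbered libraries from their group means correlated at -0.79, -0.60 and -0.88. Same-numbered libraries always fell in opposite sets, so these values cannot show whether the replicate numbers pair the libraries. With the replicate block, 0 members were called and miR-452-5p had an adjusted p of 0.95.

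With 3 libraries a group and the set split within both groups, the 95% intervals of miR-224-5p and miR-452-3p included 2-fold changes in either direction, and for miR-224-3p as few as 37 reads limit the strand share.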
